A study of Arabidopsis thaliana with 27 samples.

Results

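The 40 genes described here are the core regulators of the plant cell division cycle: 8 A cyclins, 9 B cyclins, 10 D cyclins, the kinase CDKA-1 with the 4 B-type cyclin-dependent kinases, the 7 KRP inhibitors and the kinase WEE1. They were taken from the 33602 genes of the deposited count tables by locus identifier and followed in seeds of 3 Arabidopsis thaliana lines at 3 stages. Of the 40, 39 had enough reads to be tested among 18897 genes. The exception was CYCD7-1 (AT5G02110), a D cyclin known from the stomatal lineage, with 0 counts in all 27 libraries. In a single library a count of 0 allows a level of up to 3 counts, which is 0.151 to 0.773 CPM (counts scaled to a common library total) depending on the library, for counting error only. Names are written with a hyphen, as CYCB1-1 where the RefSeq table writes CYCB1;1. For some members the RefSeq symbol is another name, such as CDC2 for CDKA-1 and ICK1 for KRP1.

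Cyclins are the unstable partners that switch cyclin-dependent kinases (CDKs) on at a given point of the cycle. In plants, D cyclins with CDKA-1 drive entry into the cycle by phosphorylating the retinoblastoma protein, A cyclins act from DNA replication to the second gap phase, and B cyclins with the plant-specific CDKBs drive mitosis. KRP proteins bind and inhibit CDK and cyclin complexes, and WEE1 phosphorylates CDKs when replication is disturbed. In a developing seed, division of embryo and endosperm cells gives way to cell expansion and the filling of embryo cells with oil and storage protein.

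Transcripts were counted by mRNA sequencing of seeds taken 7-8, 9-10 and 11-12 days after flowering, with 3 biological replicates, lettered A, B and C, in each of the 9 groups. The fae1 line is a mutant of the fatty acid elongase of seeds and the background of the other two: CL37 is fae1 with the castor hydroxylase RcFAH12, and PDAT is CL37 with the castor acyltransferase RcPDAT1a, both transgenes being expressed in seeds. All 3 lines thus carry the fae1 mutation, a fae1 wild type was not analysed here, and the castor transcripts are not among the counted Arabidopsis genes. Siliques came from about 50 plants per line grown in constant light, and each RNA sample came from about 100 mg of frozen seeds; the promoters driving the transgenes and the number of independent insertions are not given in the sources used here.

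Library totals ran from 4126510 to 22403287 gene counts, and the 40 genes together took 0.0241% to 0.111% of them. The libraries labelled A of fae1 at 7-8 and at 9-10 days stood apart from their own groups. LEC1, an embryo regulator that is high early, was at 14, 77.5 and 60.7 CPM in libraries A, B and C of fae1 at 7-8 days and at 62.8, 17.7 and 15.1 CPM at 9-10 days, so that each library A lay near B and C of the other stage. For CYCB1-2, CDKB2-1, CYCD3-2 and KRP6, library A of 7-8 days also lay near B and C of 9-10 days, as their values below show. Library A of 9-10 days lay between B and C of its own group and B and C of 7-8 days for these genes. The labels were kept as given. Both libraries were picked out from these same data, by genes that include members described here. Leaving them out therefore favours larger fae1 changes in such genes, and the p values of those fits are no independent support. Counts of called members that involve these stages of fae1 are given with and without both libraries, as are the fae1 changes of the members shown at all 3 stages. A transcript that is lower in whole seeds can come from fewer cells of a type or from less RNA per cell, and these cannot be told apart in bulk samples.

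Between 7-8 and 11-12 days most of the division genes fell in every line. By edgeR's quasi-likelihood test with Benjamini-Hochberg adjustment over all 18897 genes (called at an adjusted p below 0.05), 26 of the 39 tested members were lower and 3 higher in fae1, 30 lower and 2 higher in CL37, and 27 lower and 4 higher in PDAT. Of all genes tested, 26.5% were called lower and 24.0% higher in fae1, 28.6% and 29.5% in CL37, and 26.7% and 27.2% in PDAT. The median log2 fold change of the members was -1.49, -1.94 and -2.12 in fae1, CL37 and PDAT, where that of all genes was 0.00, 0.01 and 0.01. Lower in all 3 lines were 24 genes: 6 A cyclins, all 9 B cyclins, 3 D cyclins, the 4 CDKBs, the inhibitor KRP3 and WEE1. Higher in all 3 lines were 2 inhibitors, KRP4 and KRP6. KRP1 and KRP7 were called in no line, and 11 genes in 1 or 2 lines. How many of all genes were called in all 3 lines, or in none, is not given here. These counts over the lines are therefore a description.

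Without the 2 libraries A the 26 members called lower and the 3 called higher in fae1 were the same ones, where 31.0% and 30.2% of all genes were called, and the members' median was -1.69. Of these 29 members, 28 then had a larger change, the exception being CYCA2-3; the gain ran up to 1.13 on the log2 scale, in KRP6. KRP6 was among the genes by which these libraries were picked out. The share of non-unique alignments in a library also moved with the stage. At 7-8 days it was 6.28% to 11.4% in fae1, 10.4% to 15.8% in CL37 and 16.6% to 19.4% in PDAT, and at 11-12 days 4.05% to 5.32%, 5.47% to 6.66% and 6.43% to 15.3%. With that share in the model, 24, 24 and 21 members were called lower and 2, 2 and 3 higher in fae1, CL37 and PDAT. How many of all genes were called in that fit is not given here, so the members' loss of calls cannot be set against it. The calls lost were CYCD3-3, CYCD4-2 and KRP2 in fae1, CYCA2-2, CYCA3-4, CYCD1-1, CYCD5-1, CYCD6-1, KRP4 and KRP5 in CL37, and CYCA2-2, CYCD2-1, CYCD3-2, CYCD5-1, CYCD6-1, CDKA-1 and KRP3 in PDAT, and CYCD4-1 was gained in CL37.

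**Figure D1:**
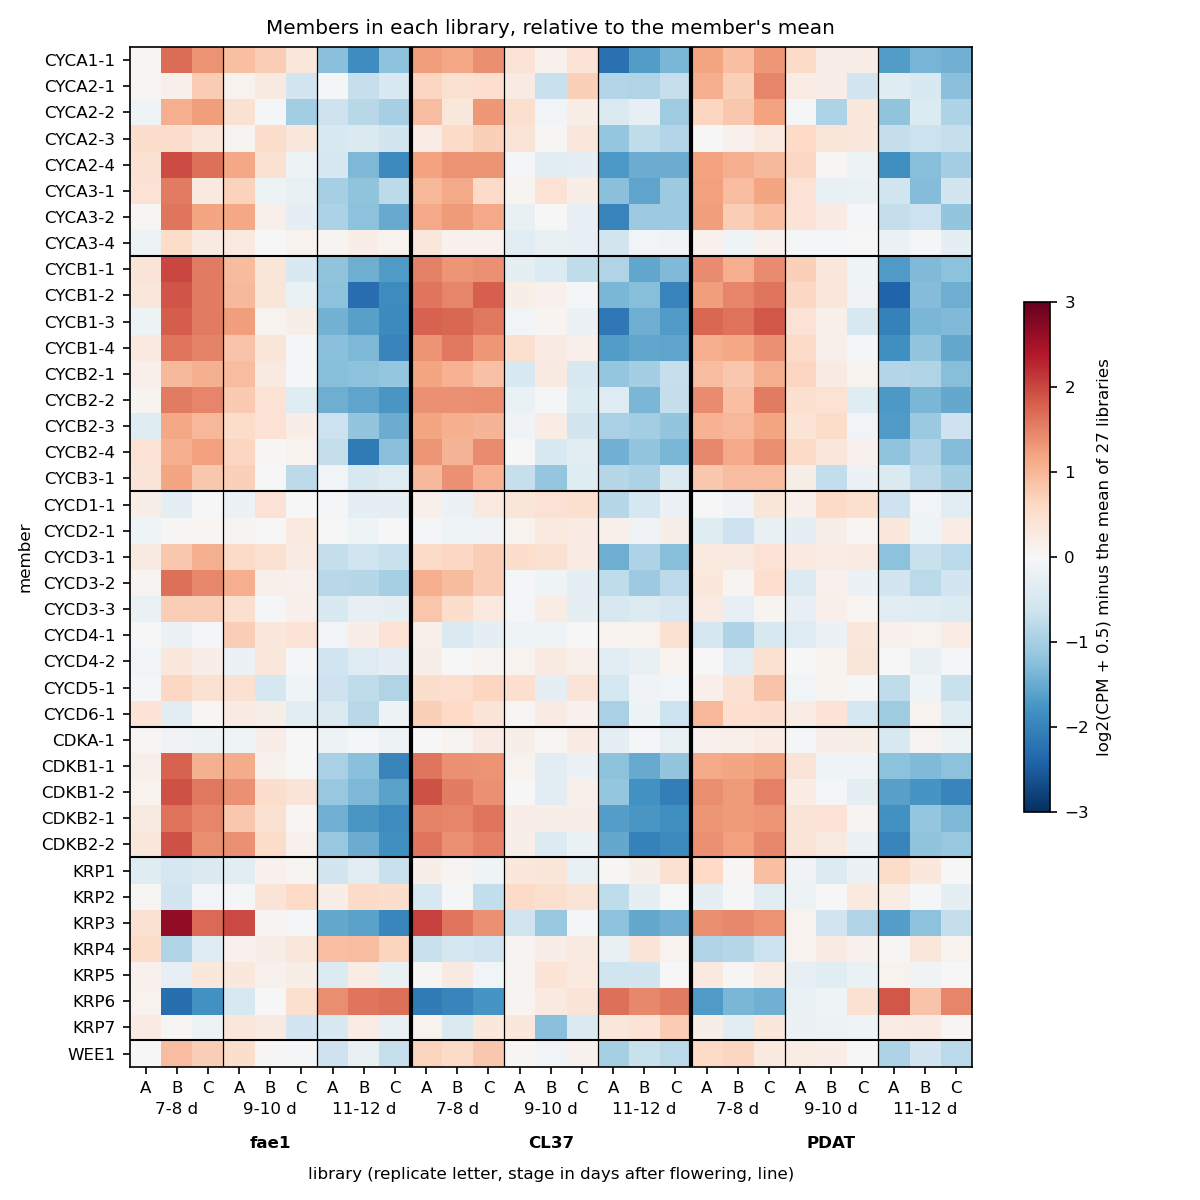
Level of the 39 tested members in each of the 27 libraries, as log2(CPM + 0.5) minus the member's mean over all libraries (red above, blue below); columns are replicates A to C of each stage in days after flowering and each line, and horizontal lines separate A cyclins, B cyclins, D cyclins, CDKs, KRPs and WEE1. A and B cyclins, CDKBs and KRP3 go from red to blue with stage and KRP6 from blue to red, and library A of fae1 is paler than B and C at 7-8 days.

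**Figure D2:**
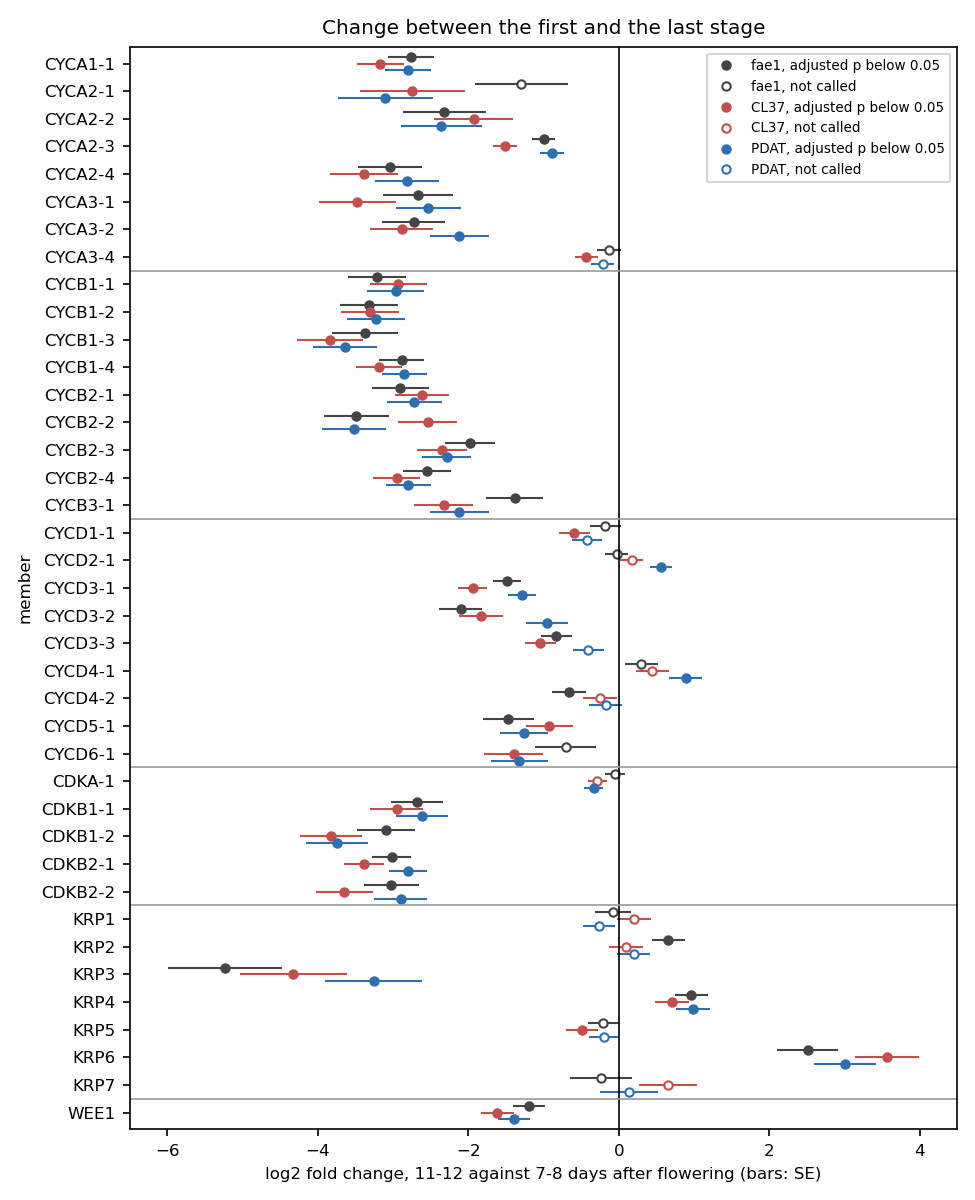
Log2 fold change between 7-8 and 11-12 days of each tested member in fae1, CL37 and PDAT, with its standard error; filled points had an adjusted p below 0.05. The 9 B cyclins and 4 CDKBs are filled and below 0 in each line, and KRP6 and KRP4 are filled and above 0.

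Markers of the other seed tissues moved over the same days, and their part in the changes of the cell cycle genes was not tested. Of 8 seed coat markers, 7 were tested and all 7 were lower at 11-12 than at 7-8 days in each line. Their summed level was 409 to 1002 CPM in fae1, 681 to 1156 in CL37 and 908 to 1318 in PDAT at 7-8 days, and 162 to 242, 155 to 181 and 181 to 329 at 11-12 days, when TT12 was at 0 in all libraries. Of 9 endosperm markers, 5 were tested, of which 4 were lower in fae1 and 5 in CL37 and in PDAT. The sum went from 26.6 to 60.4, 80.5 to 82.6 and 83.8 to 104 CPM to 5.49 to 10.1, 4.51 to 7.27 and 6.43 to 17.2 CPM. At 11-12 days FIS2 and MINI3 were at 0 in fae1, FIS2 and FWA in CL37 and MINI3 in PDAT.

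Of 5 markers of the silique wall, 3 were tested, with 3, 3 and 2 lower in fae1, CL37 and PDAT. The sum went from 27.1 to 73.5, 40.5 to 73 and 58.4 to 97.3 CPM to 14.1 to 16.8, 8.65 to 16.3 and 12 to 29.8 CPM, with IND at 0 in each line at 11-12 days. The 4 storage protein and oil body genes of the maturing seed were higher in every line, from 9098 to 203393, 28876 to 43429 and 15578 to 39083 CPM to 288681 to 433700, 153970 to 285192 and 191380 to 198269 CPM. The 4 embryo regulators split, 2 higher and 2 lower in fae1, 1 and 2 in CL37 and 0 and 2 in PDAT. Their sum was 182 to 305, 196 to 230 and 215 to 254 CPM at 7-8 days and 316 to 409, 189 to 316 and 185 to 289 CPM at 11-12 days. Leaving out both libraries A of fae1 kept the number of markers called in fae1 in each of these lists. The median log2 fold change of the 4 maturing seed genes in fae1 was then 4.53, in place of 2.21.

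The kinases divided by class. CDKA-1, the kinase active through the whole cycle, stayed between 18.5 and 30.6 CPM in all libraries, whereas all 4 CDKBs, which act at mitosis, fell in every line. CDKA-1 (AT3G48750, chromosome 3, 18071454 to 18074641, plus strand, TAIR10.1) was at 26.5, 23.8 and 23.1 CPM in libraries A, B and C of fae1 at 7-8 days, 23.5, 29.5 and 25.8 at 9-10 days and 23, 24.9 and 23 at 11-12 days. It was at 26.1, 27.4 and 30.6, then 29.1, 26.8 and 30.6, then 21.5, 25.2 and 22.1 CPM in CL37, and at 28.2, 28.7 and 30.3, then 24.7, 29.5 and 29.1, then 18.5, 27.5 and 23 CPM in PDAT. First and last stage overlapped in fae1 and not in CL37 or PDAT, where the last stage was lower. The log2 fold change was -0.05 ± 0.13 (adjusted p = 0.76) in fae1, -0.29 ± 0.13 (adjusted p = 0.0593) in CL37 and -0.33 ± 0.13 (adjusted p = 0.0304) in PDAT. The call in PDAT ended on leaving out its 7-8 day library B or C or its 11-12 day library A or C, with adjusted p values of 0.0563 to 0.206. CL37 was called with the RLE and upper-quartile scalings, DESeq2, the replicate block, the CL37 libraries fitted alone and without both libraries A of fae1 (adjusted p = 0.0495), when fae1 was at 0.01 ± 0.14 (adjusted p = 0.956).

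CDKB2-1 (AT1G76540, chromosome 1, 28720328 to 28722550, minus strand), the highest CDKB per kilobase of exon, was at 22.8, 59.2 and 53.1 CPM in fae1 at 7-8 days, 33.4, 26.3 and 19.9 at 9-10 days and 6.65, 5.31 and 4.74 at 11-12 days. In CL37 it went from 53.8, 53.2 and 58.8 to 21.8, 21.4 and 21.8 and then 5.71, 5.28 and 4.97 CPM, and in PDAT from 47.9, 46.9 and 48.3 to 25, 25.6 and 20 and then 5.04, 8.15 and 7.16 CPM. In CL37 and PDAT the 3 stages did not overlap, and in fae1 library A of 7-8 days fell among the 9-10 day values. From first to last stage the log2 fold change was -3.02 ± 0.26 (adjusted p = 5e-07) in fae1, -3.38 ± 0.27 (adjusted p = 2.11e-09) in CL37 and -2.80 ± 0.26 (adjusted p = 5.34e-08) in PDAT. These are falls of 8.11-fold, 10.4-fold and 6.98-fold. The fae1 value without both libraries A was -3.34 ± 0.17 (adjusted p = 6.81e-13).

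Of the other CDKBs, CDKB1-2 (AT2G38620, chromosome 2, 16152473 to 16154086, plus strand) fell most. In fae1 the 7-8 day libraries A, B and C held 5.05, 18.9 and 14.9 CPM of CDKB1-2 and the 11-12 day libraries 1.85, 1.53 and 1.2 CPM. In CL37 the 7-8 day libraries A, B and C held 18.8, 14.4 and 12.8 CPM of CDKB1-2 and the 11-12 day libraries 1.8, 0.961 and 0.722 CPM. In PDAT the 7-8 day libraries A, B and C held 13.1, 12.1 and 14.3 CPM of CDKB1-2 and the 11-12 day libraries 1.18, 1.01 and 0.803 CPM. Its first and last stages did not overlap in any line. On the log2 scale it changed by -3.09 ± 0.39 (adjusted p = 4.59e-06) in fae1, -3.83 ± 0.41 (adjusted p = 1.1e-07) in CL37 and -3.75 ± 0.41 (adjusted p = 3.19e-07) in PDAT. A gene on the opposite strand, AT2G38630, overlaps 18.7% of its exon bases, and whether the counting used strand is not given, so that reads of the pair cannot be told apart. That neighbour was called higher in PDAT and was not called in fae1 or CL37. CDKB2-2 (AT1G20930, chromosome 1, 7292389 to 7294746, minus strand) went from 10.6, 32.6 and 22.5 to 3.51, 2.65 and 1.95 CPM in fae1, from 26.4, 22.3 and 24.6 to 2.55, 1.65 and 1.85 in CL37 and from 22.2, 20 and 23.3 to 1.72, 3.3 and 3.52 in PDAT, with no overlap. Its log2 fold change was -3.03 ± 0.36 (adjusted p = 3.35e-06) in fae1, -3.65 ± 0.38 (adjusted p = 9.04e-08) in CL37 and -2.90 ± 0.36 (adjusted p = 1.2e-06) in PDAT. CDKB1-1, the partner of CYCA2-3 in holding back endoreduplication, changed by -2.68 ± 0.35 (adjusted p = 6.78e-06) in fae1, -2.95 ± 0.35 (adjusted p = 3.98e-07) in CL37 and -2.62 ± 0.34 (adjusted p = 2.34e-06) in PDAT.

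All 9 B cyclins, the cyclins of mitosis, fell in all 3 lines, and the regulatory sequence most of them share is shown first. The mitosis-specific activator (MSA) element is the site at which MYB3R transcription factors bind genes of the second gap phase and mitosis; its core is AACGG, and CCAACGG is a longer form that contains it. Windows from 250 bases before to 50 bases after the annotated start of each gene were read from the TAIR10.1 genome of RefSeq and searched on both strands. CCAACGG was found in 7 of the 9 B cyclins, in none of the other 31 members, and in 1.85% of 27443 protein-coding genes. The core alone was found in 8 of 9 B cyclins, 3 of 8 A cyclins, 1 of 10 D cyclins, 1 of 5 CDKs, 5 of 7 KRPs and WEE1, against 24.7% of protein-coding genes. CYCB2-4 held neither form and CYCB3-1 the core alone. A match of letters is a description of the window, and none says that a factor binds there.

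The 10 matches are shown with 10 bases on each side, in the orientation that reads CCAACGG (in capitals), since 7 of the 9 B cyclins hold them and none of the other 31 members does.
CYCB1-1 (chr4:17624353-17624379, strand opposite the gene, 61 bases before the start): taaatgaaccCCAACGGtctgattgtt
CYCB1-2 (chr5:1861832-1861858, strand of the gene, 145 bases before the start): tatttacagtCCAACGGcctcattcga
CYCB1-2 (chr5:1861698-1861724, strand opposite the gene, 11 bases before the start): cggttcaattCCAACGGtcatattttt
CYCB1-2 (chr5:1861684-1861710, strand opposite the gene, 4 bases after the start): ggaggaggagCCAACGGttcaattcca
CYCB1-3 (chr3:3627298-3627324, strand of the gene, 41 bases before the start): agttcatcatCCAACGGctagaagtct
CYCB1-4 (chr2:11401133-11401159, strand of the gene, 26 bases after the start): ctcttcgtccCCAACGGctagtaataa
CYCB2-1 (chr2:7663958-7663984, strand of the gene, 87 bases before the start): ccctcatgatCCAACGGttatattcta
CYCB2-2 (chr4:16901414-16901440, strand opposite the gene, 172 bases before the start): ctgtctaaacCCAACGGtaactttttt
CYCB2-2 (chr4:16901460-16901486, strand of the gene, 126 bases before the start): ccttcatgatCCAACGGtcatcttaat
CYCB2-3 (chr1:7137880-7137906, strand of the gene, 68 bases before the start): tggcgttgatCCAACGGctgagatgaa

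The 250 bases before the start of CYCB1-2, the B cyclin with the most matches, carry the core 4 times (capitals, AACGG or its complement CCGTT); the same stretch of KRP6, the member that rose most, is shown for comparison and carries none, although the window searched above holds the core once in KRP6, from 22 to 26 bases after the start.
CYCB1-2 (chr5:1861704-1861953, minus strand): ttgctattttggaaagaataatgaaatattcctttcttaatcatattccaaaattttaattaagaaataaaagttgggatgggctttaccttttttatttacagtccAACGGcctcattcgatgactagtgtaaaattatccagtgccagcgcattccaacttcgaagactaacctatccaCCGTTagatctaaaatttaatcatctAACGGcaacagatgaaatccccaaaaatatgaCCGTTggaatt
KRP6 (chr3:6617952-6618201, minus strand): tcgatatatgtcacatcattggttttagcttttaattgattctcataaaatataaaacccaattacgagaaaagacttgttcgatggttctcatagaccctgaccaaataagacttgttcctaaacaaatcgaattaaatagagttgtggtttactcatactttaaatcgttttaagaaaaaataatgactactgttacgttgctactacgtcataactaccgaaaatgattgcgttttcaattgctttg

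A second set of letters, the E2F sites TTTCCCGC, TTTGGCGC, TTTGCCGC and TTTCGCGC at which the factors of replication genes bind, was found in 1 of the 40 windows, that of CYCD3-3, against 1.76% of protein-coding genes. KRP1 held the core 7 times, more than any other member.

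CYCB1-2 (AT5G06150, chromosome 5, 1859279 to 1861703, minus strand) was at 14.9, 44.5 and 34.6 CPM in libraries A, B and C of fae1 at 7-8 days, 23.4, 15.3 and 10.1 at 9-10 days and 4.71, 2.01 and 2.78 at 11-12 days. It went from 36.9, 33 and 41.6 to 13.3, 12.9 and 11.5 and then 4.21, 4.53 and 2.57 CPM in CL37, and from 28.6, 33 and 36.8 to 18.2, 14.9 and 10.9 and then 1.82, 4.49 and 3.95 CPM in PDAT. The 3 stages did not overlap in CL37 or PDAT; in fae1, library A of 7-8 days lay below library A of 9-10 days. From first to last stage the log2 fold change was -3.32 ± 0.39 (adjusted p = 2.52e-06) in fae1, -3.31 ± 0.38 (adjusted p = 3.2e-07) in CL37 and -3.23 ± 0.38 (adjusted p = 7.67e-07) in PDAT. With both libraries A left out, fae1 was at -3.66 ± 0.30 (adjusted p = 1.1e-09).

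CYCB1-3 (AT3G11520, chromosome 3, 3625286 to 3627273, minus strand) had the largest mean fall of the B cyclins. Libraries A, B and C of fae1 held 4.53, 19.2 and 15.9 CPM at 7-8 days and 1.57, 1.29 and 0.977 CPM at 11-12 days. Libraries A, B and C of CL37 held 18.6, 17.9 and 16.1 CPM at 7-8 days and 0.751, 1.51 and 1.2 CPM at 11-12 days. Libraries A, B and C of PDAT held 18, 16.8 and 19.7 CPM at 7-8 days and 0.858, 1.65 and 1.73 CPM at 11-12 days. The stages did not overlap in any line. As a log2 fold change this was -3.37 ± 0.44 (adjusted p = 6.78e-06) in fae1, -3.84 ± 0.44 (adjusted p = 2.82e-07) in CL37 and -3.63 ± 0.43 (adjusted p = 6.93e-07) in PDAT. These are falls of 10.4-fold, 14.3-fold and 12.4-fold. CYCB2-2 (AT4G35620, chromosome 4, 16901596 to 16904001, plus strand) went from 3.09, 9.52 and 8.94 to 0.739, 0.643 and 0.526 CPM in fae1, from 8.29, 8.35 and 8.42 to 2.1, 0.824 and 1.6 in CL37 and from 8.6, 5.88 and 9.53 to 0.536, 0.824 and 0.679 in PDAT. Its change was -3.49 ± 0.44 (adjusted p = 4.42e-06) in fae1, -2.54 ± 0.39 (adjusted p = 1.05e-05) in CL37 and -3.52 ± 0.43 (adjusted p = 8.88e-07) in PDAT, and the CL37 libraries A and C kept the highest levels of it at 11-12 days.

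CYCB3-1 (AT1G16330, chromosome 1, 5582387 to 5587461, minus strand), a cyclin of its own subgroup, fell least. The levels in fae1 were 2.47, 4.66 and 3.5 CPM at 7-8 days and 1.66, 1.13 and 1.28 CPM at 11-12 days. The levels in CL37 were 4, 5.36 and 4.16 CPM at 7-8 days and 0.751, 0.686 and 1.2 CPM at 11-12 days. The levels in PDAT were 3.47, 3.85 and 3.85 CPM at 7-8 days and 1.18, 0.824 and 0.617 CPM at 11-12 days. The first and last stages did not overlap. The fitted log2 change was -1.39 ± 0.38 (adjusted p = 0.0046) in fae1, -2.33 ± 0.39 (adjusted p = 2.97e-05) in CL37 and -2.12 ± 0.39 (adjusted p = 0.000105) in PDAT. In fae1 the adjusted p was 0.0502 when the fae1 libraries were fitted alone. In CL37 its fitted change lay in the first step: -2.29 ± 0.42 (adjusted p = 0.0014) from 7-8 to 9-10 days and -0.04 ± 0.49 (adjusted p = 0.961) from 9-10 to 11-12 days. The CL37 9-10 day libraries A, B and C held 0.918, 0.515 and 1.26 CPM of it. A level of 3 counts there is 0.197, 0.773 and 0.628 CPM, so this split rests on few reads. The other 5, CYCB1-1, CYCB1-4, CYCB2-1, CYCB2-3 and CYCB2-4, changed by -1.98 to -3.21 in fae1, by -2.35 to -3.18 in CL37 and by -2.29 to -2.97 in PDAT, all called. CYCB1-1, the B cyclin most used as a marker of dividing cells, fell 9.27-fold, 7.64-fold and 7.82-fold.

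Of the 8 A cyclins, 6 were called lower in all 3 lines, CYCA2-1 in CL37 and PDAT, and CYCA3-4 in CL37. CYCA2-1 was not called in fae1, although its first and last stages did not overlap there. It was at 0.721 to 1.54 CPM at 7-8 days and 0.241 to 0.647 CPM at 11-12 days in fae1. A level of 3 counts in those late libraries is 0.226 to 0.277 CPM. The medians of the 8 A cyclins were -2.49, -2.81 and -2.45. CYCA2-4 (AT1G80370, chromosome 1, 30213705 to 30217102, plus strand) had the largest mean fall of them. CYCA2-4 in fae1 was at 5.15, 15.5 and 12.5 CPM at 7-8 days and at 2.4, 1.13 and 0.601 CPM at 11-12 days. CYCA2-4 in CL37 was at 8.94, 9.95 and 9.98 CPM at 7-8 days and at 0.751, 0.961 and 0.963 CPM at 11-12 days. CYCA2-4 in PDAT was at 9.08, 8.22 and 7.61 CPM at 7-8 days and at 0.643, 1.19 and 1.54 CPM at 11-12 days. The stages did not overlap. The log2 fold change was -3.04 ± 0.42 (adjusted p = 1.35e-05) in fae1, -3.38 ± 0.45 (adjusted p = 1.65e-06) in CL37 and -2.82 ± 0.43 (adjusted p = 1.21e-05) in PDAT. CYCA1-1 (AT1G44110, chromosome 1, 16774765 to 16777352, minus strand), the highest of the A cyclins per kilobase at 7-8 days in each line, went from 10.2, 32.3 and 25.4 to 3.79, 2.33 and 3.83 CPM in fae1, from 24, 22.5 and 26.4 to 1.65, 2.68 and 3.45 in CL37 and from 22.6, 18.5 and 24.6 to 2.68, 3.39 and 3.27 in PDAT. That is -2.77 ± 0.31 (adjusted p = 1.4e-06) in fae1, -3.17 ± 0.32 (adjusted p = 4.1e-08) in CL37 and -2.80 ± 0.31 (adjusted p = 3.16e-07) in PDAT on the log2 scale, with no overlap.

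CYCA3-1 (AT5G43080, chromosome 5, 17292952 to 17295024, plus strand), of the subgroup tied to DNA replication, was low throughout. At 7-8 days fae1 held 2.06, 5.07 and 1.85 CPM of it, and at 11-12 days 0.462, 0.322 and 0.601 CPM. At 7-8 days CL37 held 3.27, 3.68 and 2.34 CPM of it, and at 11-12 days 0.3, 0.137 and 0.401 CPM. At 7-8 days PDAT held 3.95, 3.12 and 3.85 CPM of it, and at 11-12 days 0.75, 0.275 and 0.803 CPM. Its first and last stages did not overlap. On the log2 scale it changed by -2.66 ± 0.47 (adjusted p = 0.000124) in fae1, -3.47 ± 0.51 (adjusted p = 5.62e-06) in CL37 and -2.53 ± 0.44 (adjusted p = 4.99e-05) in PDAT. CYCA3-4 (AT1G47230, chromosome 1, 17306574 to 17308848, plus strand), of the same subgroup, was the A cyclin that changed least. In fae1 the 7-8 day libraries A, B and C held 10.7, 17.9 and 14.6 CPM of CYCA3-4 and the 11-12 day libraries 12.8, 13.8 and 12.9 CPM. In CL37 the 7-8 day libraries A, B and C held 15.4, 13.1 and 13.1 CPM of CYCA3-4 and the 11-12 day libraries 8.11, 11.3 and 11.2 CPM. In PDAT the 7-8 day libraries A, B and C held 13.1, 10.9 and 13.1 CPM of CYCA3-4 and the 11-12 day libraries 10.5, 11.8 and 9.69 CPM. The stages overlapped in fae1 and PDAT and not in CL37, where all 3 late libraries were lower. Its log2 fold change was -0.13 ± 0.16 (adjusted p = 0.506) in fae1, -0.43 ± 0.16 (adjusted p = 0.0226) in CL37 and -0.21 ± 0.16 (adjusted p = 0.253) in PDAT. The call in CL37 ended without the 7-8 day library A or the 11-12 day library A of CL37, at adjusted p values of 0.103 and 0.122. CYCA2-3, which with CDKB1-1 restrains endoreduplication, fell least of the 6 called in every line, by 2-fold, 2.86-fold and 1.85-fold.

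The 9 tested D cyclins, the cyclins of cycle entry, did not move as a block. CYCD3-1, CYCD3-2 and CYCD5-1 fell in all 3 lines, CYCD3-3 in fae1 and CL37, CYCD6-1 in CL37 and PDAT, CYCD1-1 in CL37 and CYCD4-2 in fae1, while CYCD2-1 and CYCD4-1 rose in PDAT. With all libraries no difference between lines in these changes passed its own test. The medians were -0.71, -0.92 and -0.42. CYCD3-2 (AT5G67260, chromosome 5, 26836139 to 26839597, plus strand), of the CYCD3 group that prolongs cell proliferation, was the member with the highest level per kilobase of exon at 7-8 days in each line. It was at 58, 172 and 149 CPM in libraries A, B and C of fae1 at 7-8 days, 118, 60.6 and 59.5 at 9-10 days and 30.6, 30.2 and 27.4 at 11-12 days. It was at 118, 107 and 91.4, then 52.6, 50 and 44.8, then 32, 25.4 and 31.7 CPM in CL37, and at 68, 57.8 and 77.4, then 41.3, 59.7 and 48.2, then 36.7, 31.1 and 36.6 CPM in PDAT. At 7-8 days all 3 PDAT libraries lay below all 3 CL37 libraries and below B and C of fae1, and library A of fae1 lay within the PDAT values; at 11-12 days CL37 overlapped both other lines, and all 3 PDAT libraries lay above all 3 of fae1. As a log2 fold change this was -2.10 ± 0.29 (adjusted p = 1.17e-05) in fae1, -1.83 ± 0.29 (adjusted p = 1.26e-05) in CL37 and -0.96 ± 0.28 (adjusted p = 0.00624) in PDAT. These are falls of 4.3-fold, 3.56-fold and 1.94-fold. In fae1 it was -2.45 ± 0.16 (adjusted p = 2.13e-11) without both libraries A.

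CYCD3-1 (AT4G34160, chromosome 4, 16357421 to 16359565, plus strand), a cytokinin-responsive member of the same group, followed. Libraries A, B and C of fae1 held 12.2, 18.1 and 21.7 CPM at 7-8 days and 5.91, 6.51 and 6.09 CPM at 11-12 days. Libraries A, B and C of CL37 held 15.1, 15.8 and 17.2 CPM at 7-8 days and 3.31, 5.08 and 3.85 CPM at 11-12 days. Libraries A, B and C of PDAT held 12.5, 12.2 and 13.8 CPM at 7-8 days and 3.97, 6.14 and 5.49 CPM at 11-12 days. The stages did not overlap. The fitted log2 change was -1.49 ± 0.18 (adjusted p = 3.93e-06) in fae1, -1.94 ± 0.19 (adjusted p = 3.23e-08) in CL37 and -1.29 ± 0.18 (adjusted p = 5.83e-06) in PDAT. In CL37 the first step was -0.22 ± 0.18 (adjusted p = 0.373) and the second -1.72 ± 0.20 (adjusted p = 2.56e-06). In PDAT they were -0.10 ± 0.17 (adjusted p = 0.713) and -1.19 ± 0.19 (adjusted p = 0.000125), so that the second step was the one called in both lines. CYCD3-3, the third of the group, changed by -0.83 ± 0.21 (adjusted p = 0.00252) in fae1, -1.04 ± 0.21 (adjusted p = 0.000183) in CL37 and -0.40 ± 0.21 (adjusted p = 0.101) in PDAT; without both libraries A of fae1 it was called in PDAT as well (adjusted p = 0.023). CYCD5-1 (AT4G37630, chromosome 4, 17679168 to 17681264, plus strand) was low, at 1.86, 3.31 and 2.88 CPM at 7-8 days and 1.11, 0.965 and 0.827 at 11-12 days in fae1, 3.05, 2.99 and 3.38 and 1.2, 1.78 and 1.85 in CL37, and 2.24, 2.91 and 3.94 and 0.965, 1.74 and 1.05 in PDAT. The stages did not overlap within a line. The log2 fold change was -1.47 ± 0.34 (adjusted p = 0.00141) in fae1, -0.92 ± 0.31 (adjusted p = 0.015) in CL37 and -1.26 ± 0.32 (adjusted p = 0.00206) in PDAT. In CL37 the adjusted p was 0.0592 without the 11-12 day library A.

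CYCD2-1 (AT2G22490, chromosome 2, 9553797 to 9556167, minus strand), a sucrose-responsive D cyclin, changed least over the 3 lines. The levels in fae1 were 10.4, 11.8 and 12.1 CPM at 7-8 days and 11.5, 10.5 and 11.7 CPM at 11-12 days. The levels in CL37 were 11.2, 10.4 and 10.7 CPM at 7-8 days and 12.9, 10.6 and 13 CPM at 11-12 days. The levels in PDAT were 8.81, 7.34 and 9.8 CPM at 7-8 days and 14.4, 10.4 and 13.5 CPM at 11-12 days. The stages overlapped in fae1 and CL37 and not in PDAT. On the log2 scale it changed by -0.03 ± 0.15 (adjusted p = 0.883) in fae1, 0.17 ± 0.15 (adjusted p = 0.336) in CL37 and 0.56 ± 0.15 (adjusted p = 0.00284) in PDAT. CYCD4-1 (AT5G65420, chromosome 5, 26141470 to 26144020, minus strand) was the other D cyclin with a rise. CYCD4-1 in fae1 was at 4.84, 4.24 and 4.63 CPM at 7-8 days and at 4.53, 5.63 and 6.69 CPM at 11-12 days. CYCD4-1 in CL37 was at 5.38, 3.45 and 3.9 CPM at 7-8 days and at 5.26, 5.22 and 6.82 CPM at 11-12 days. CYCD4-1 in PDAT was at 3.2, 2.29 and 3.41 CPM at 7-8 days and at 5.36, 5.22 and 5.74 CPM at 11-12 days. The stages overlapped in fae1 and CL37 and not in PDAT. Its log2 fold change was 0.30 ± 0.22 (adjusted p = 0.258) in fae1, 0.44 ± 0.22 (adjusted p = 0.0856) in CL37 and 0.89 ± 0.22 (adjusted p = 0.00178) in PDAT. Without CL37 7-8 day library A it was called in CL37 as well, at 0.65 with an adjusted p of 0.0266. CYCD6-1, a cyclin of formative divisions in the root, changed by -0.71 ± 0.40 (adjusted p = 0.145) in fae1, -1.40 ± 0.39 (adjusted p = 0.00391) in CL37 and -1.32 ± 0.37 (adjusted p = 0.00491) in PDAT. It shares 25.3% of its exon bases with AT4G03260 on the opposite strand, which rose in fae1 and CL37; reads of the pair cannot be told apart without strand. CYCD1-1 changed by -0.18 ± 0.20 (adjusted p = 0.473) in fae1, -0.59 ± 0.20 (adjusted p = 0.0163) in CL37 and -0.42 ± 0.20 (adjusted p = 0.0794) in PDAT. CYCD4-2 changed by -0.66 ± 0.23 (adjusted p = 0.0199) in fae1, -0.25 ± 0.22 (adjusted p = 0.343) in CL37 and -0.18 ± 0.22 (adjusted p = 0.589) in PDAT. Both calls were lost without any of 3 single libraries of their line, at adjusted p values of 0.0514 to 0.0963, and without PDAT 11-12 day library B CYCD1-1 was called in PDAT (-0.55, adjusted p = 0.043).

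The 7 KRP inhibitors went in opposite directions. KRP6 and KRP4 rose and KRP3 fell in all 3 lines, KRP2 rose in fae1, KRP5 fell in CL37, and KRP1 and KRP7 were called in no line. KRP6 (AT3G19150, chromosome 3, 6616330 to 6617951, minus strand), known in pollen as a target of the F-box protein FBL17, rose most of all members. It was at 40.4, 7.35 and 10.3 CPM in libraries A, B and C of fae1 at 7-8 days, 26.6, 37 and 52.2 at 9-10 days and 98.6, 114 and 118 at 11-12 days. It was at 8.36, 9.04 and 10.5, then 39.2, 45.9 and 48.6, then 119, 102 and 110 CPM in CL37, and at 11.1, 14 and 13.3, then 32.3, 34.2 and 51, then 136, 67.9 and 104 CPM in PDAT. In CL37 and PDAT each stage lay wholly above the one before; in fae1, library A of 7-8 days lay inside the 9-10 day values. As a log2 fold change this was 2.51 ± 0.41 (adjusted p = 6.87e-05) in fae1, 3.57 ± 0.43 (adjusted p = 5.33e-07) in CL37 and 3.01 ± 0.41 (adjusted p = 4.6e-06) in PDAT. These are rises of 5.69-fold, 11.8-fold and 8.04-fold. Without both libraries A it was 3.64 ± 0.28 (adjusted p = 3.14e-10) in fae1.

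KRP3 (AT5G48820, chromosome 5, 19792270 to 19794480, minus strand) went the other way. Its fitted fall was the largest of the 39 members in fae1 and CL37, whereas in PDAT CDKB1-2, CYCB1-3 and CYCB2-2 fell more. It was at 2.58, 13.6 and 6.79 CPM in fae1 at 7-8 days, 8.38, 1.87 and 1.66 at 9-10 days and 0.277, 0.241 and 0.0752 at 11-12 days. It was at 8.73, 6.36 and 5.29, then 0.984, 0.515 and 1.67, then 0.451, 0.275 and 0.321 CPM in CL37, and at 5.39, 5.57 and 5.25, then 1.93, 0.996 and 0.706, then 0.214, 0.458 and 0.864 CPM in PDAT. First and last stages did not overlap in any line. The fitted log2 change was -5.24 ± 0.76 (adjusted p = 2.06e-05) in fae1, -4.32 ± 0.71 (adjusted p = 2.39e-05) in CL37 and -3.26 ± 0.64 (adjusted p = 0.00022) in PDAT. The fae1 value without both libraries A was -5.65 ± 0.49 (adjusted p = 2.16e-09). The late values rest on few reads, 7 over the 3 late libraries of fae1, 11 in CL37 and 21 in PDAT. As summed counts per effective library size, the early to late ratio was 39.8 (exact 95% interval 19 to 100) in fae1, 21.1 (11.6 to 42.8) in CL37 and 9.41 (6.03 to 15.5) in PDAT, intervals that cover counting error only.

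KRP4 (AT2G32710, chromosome 2, 13873362 to 13876737, plus strand) also rose. It was at 52.1, 18.5 and 27 CPM in fae1 at 7-8 days, 38.7, 40.7 and 44.6 at 9-10 days and 66.6, 67.6 and 56.5 at 11-12 days. It was at 22.2, 24.2 and 23.3, then 37.5, 40.5 and 42.9, then 30, 46 and 37.7 CPM in CL37, and at 18.5, 19.2 and 22.3, then 37.7, 41.8 and 38.8, then 36.3, 44.6 and 38.2 CPM in PDAT. The late libraries lay above the early ones in every line; in CL37 and PDAT the 9-10 and 11-12 day values overlapped, whereas in fae1 all 3 late libraries lay above all others. The log2 fold change was 0.96 ± 0.22 (adjusted p = 0.00154) in fae1, 0.71 ± 0.23 (adjusted p = 0.00982) in CL37 and 0.99 ± 0.23 (adjusted p = 0.000846) in PDAT. With both libraries A left out, fae1 was at 1.48 ± 0.17 (adjusted p = 1.19e-07). In CL37 the call ended without the 11-12 day library B (0.55, adjusted p = 0.0663).

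KRP2 (AT3G50630, chromosome 3, 18800306 to 18801595, plus strand) was at 12.8, 8.28 and 11.8 CPM in fae1 at 7-8 days, 12.2, 16.5 and 19.4 at 9-10 days and 14.2, 19.1 and 18.3 at 11-12 days. It was at 8.94, 12 and 7.38, then 18.9, 17.8 and 16.7, then 7.21, 10.3 and 12.4 CPM in CL37, and at 10.1, 12.1 and 9.8, then 11.2, 12.4 and 15.6, then 14.7, 12.1 and 10.3 CPM in PDAT. In CL37 the 9-10 day libraries stood above both other stages, with 0.92 ± 0.22 (adjusted p = 0.00656) in the first step and -0.82 ± 0.22 (adjusted p = 0.00745) in the second. From first to last stage the change was 0.65 ± 0.22 (adjusted p = 0.017) in fae1, 0.09 ± 0.22 (adjusted p = 0.743) in CL37 and 0.20 ± 0.22 (adjusted p = 0.455) in PDAT. In fae1 it was 0.78 ± 0.23 (adjusted p = 0.0054) without both libraries A. The call in fae1 ended when the fae1 libraries were fitted alone and without fae1 7-8 day library B, 11-12 day library B or 11-12 day library C, at adjusted p values of 0.0525 to 0.113. In fae1 all 3 late libraries lay above the 7-8 day ones, and in CL37 and PDAT these stages overlapped.

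KRP1 (AT2G23430, chromosome 2, 9976590 to 9978090, minus strand), the inhibitor first found to bind both CDKA-1 and D cyclins, changed least over the stages. It was at 3.71, 3.31 and 3.5 CPM in fae1 at 7-8 days, 3.83, 5.42 and 5.28 at 9-10 days and 3.23, 3.78 and 2.93 at 11-12 days. It was at 5.67, 5.28 and 4.43, then 6.23, 6.44 and 4.19, then 5.11, 5.63 and 6.9 CPM in CL37, and at 7.69, 5.1 and 9.62, then 4.59, 3.61 and 4.34, then 7.5, 6.32 and 4.88 CPM in PDAT. First and last stages overlapped in each line; the 9-10 day libraries lay above both in fae1, below both in PDAT and among them in CL37. On the log2 scale it changed by -0.08 ± 0.24 (adjusted p = 0.799) in fae1, 0.20 ± 0.22 (adjusted p = 0.445) in CL37 and -0.26 ± 0.21 (adjusted p = 0.315) in PDAT from first to last. The fae1 value without both libraries A was -0.04 ± 0.27 (adjusted p = 0.915). Within PDAT it was lower at 9-10 than at 7-8 days (-0.81 ± 0.22 (adjusted p = 0.00734)), a call that ended without PDAT 7-8 day library C. KRP5 changed by -0.21 ± 0.21 (adjusted p = 0.409) in fae1, -0.49 ± 0.21 (adjusted p = 0.0479) in CL37 and -0.19 ± 0.20 (adjusted p = 0.426) in PDAT. Its call in CL37 was lost with DESeq2 (adjusted p = 0.0574) and without any of 4 CL37 libraries (0.0714 to 0.201). KRP7, the lowest KRP at 7-8 days, changed by -0.23 ± 0.41 (adjusted p = 0.661) in fae1, 0.66 ± 0.39 (adjusted p = 0.152) in CL37 and 0.13 ± 0.39 (adjusted p = 0.791) in PDAT.

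**Figure D3:**
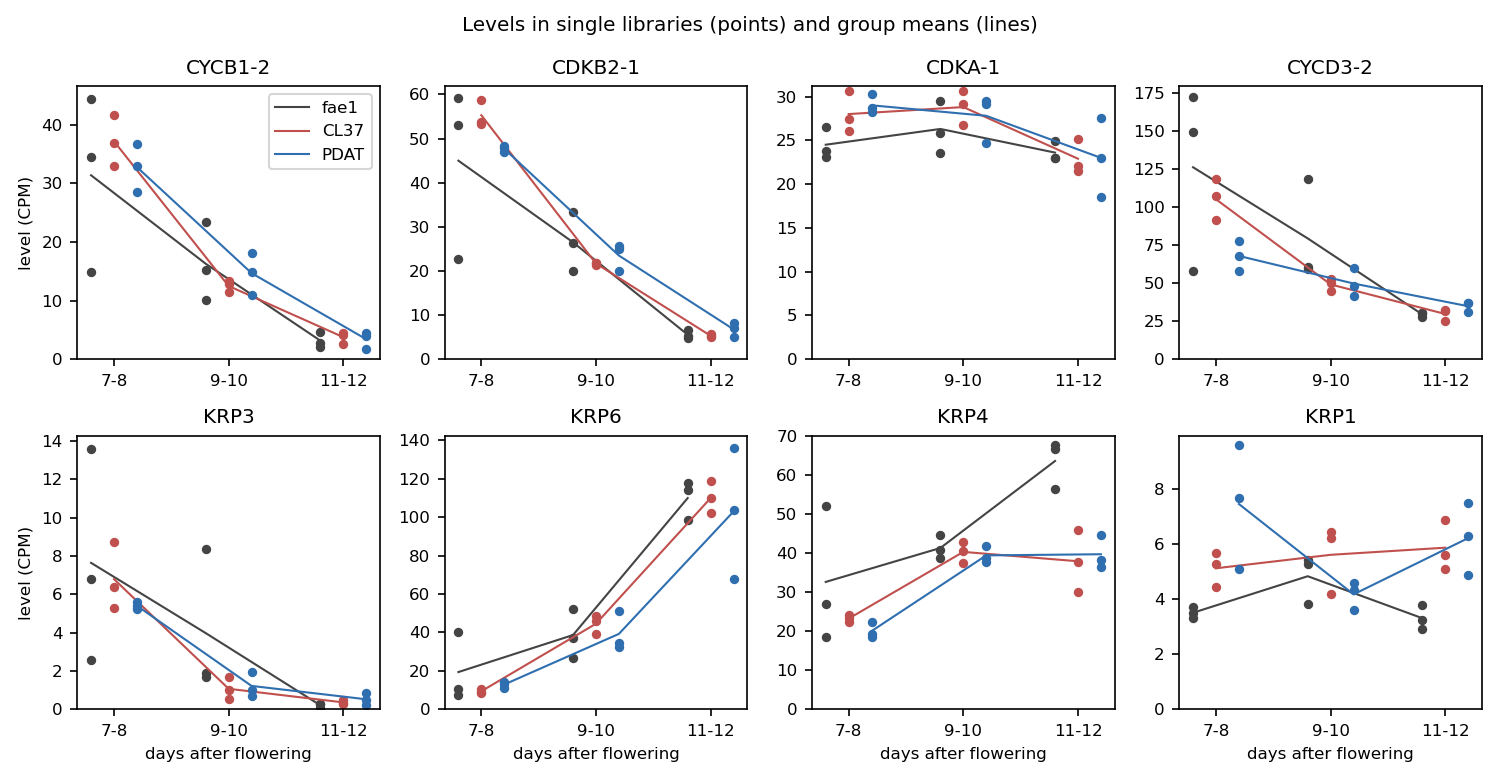
Level in CPM of 8 members in each library (points, 3 replicates) and the group mean (lines) at 7-8, 9-10 and 11-12 days after flowering in fae1, CL37 and PDAT. CYCB1-2, CDKB2-1, CYCD3-2 and KRP3 go down, KRP6 goes up, CDKA-1 lies between 18.5 and 30.6 CPM, and fae1 alone reaches 56.5 to 67.6 CPM of KRP4 at 11-12 days.

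WEE1 (AT1G02970, chromosome 1, 673306 to 676419, plus strand), the inhibitory CDK kinase of the replication checkpoint, fell with the mitotic genes. At 7-8 days fae1 held 6.6, 12.9 and 11.2 CPM of it, and at 11-12 days 4.06, 5.55 and 3.83 CPM. At 7-8 days CL37 held 10.7, 9.95 and 11.9 CPM of it, and at 11-12 days 3, 3.91 and 3.53 CPM. At 7-8 days PDAT held 10.2, 10.4 and 8.13 CPM of it, and at 11-12 days 3.22, 4.21 and 3.52 CPM. The stages did not overlap. Its log2 fold change was -1.19 ± 0.21 (adjusted p = 0.000167) in fae1, -1.62 ± 0.22 (adjusted p = 1.99e-06) in CL37 and -1.39 ± 0.22 (adjusted p = 1.48e-05) in PDAT.

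The order of the members by level per kilobase of exon changed with the stage. At 7-8 days CYCD3-2 stood first in each line, at 89.2 ± 42.6, 74.5 ± 9.36 and 47.9 ± 6.92 CPM per kilobase in fae1, CL37 and PDAT (SD, n = 3), followed by CDKB2-1 at 33.7 ± 14.6, 41.3 ± 2.3 and 35.7 ± 0.538. Within each library CYCD3-2 was the higher of the pair, 2.41 to 2.75 times in fae1, 1.47 to 2.07 times in CL37 and 1.17 to 1.52 times in PDAT. CDKA-1 was at 17.3 ± 1.25, 19.8 ± 1.64 and 20.5 ± 0.765, and its neighbours CYCB1-2 and CDKB2-2 lay within that spread in CL37. At 11-12 days the first place went to KRP6 in each line, at 88.7 ± 8.2, 88.6 ± 6.76 and 82.6 ± 27.4, then KRP4 at 45.1 ± 4.35, 26.9 ± 5.67 and 28.1 ± 3.08. CYCD3-2, CYCD3-3 and CDKA-1 came next, and 3 inhibitors, KRP6, KRP4 and KRP2, were among the first 6 members in each line.

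The timing of the changes was followed through the first step, from 7-8 to 9-10 days, and the second, from 9-10 to 11-12 days, which share the 9-10 day libraries. In CL37, 21 members were lower and 3 higher in the first step, where 12.6% and 13.2% of all genes were, and 20 lower and 1 higher in the second, against 15.0% and 16.1%. In PDAT, 17 were lower and 4 higher in the first step (16.3% and 16.2% of all genes) and 20 lower and 1 higher in the second (11.6% and 12.2%). Without PDAT 9-10 day library C the first step had 12 calls in all, and with the share of non-unique alignments in the model it had 0. That share was 16.6% to 19.4% at 7-8 and 6.3% to 10.5% at 9-10 days in PDAT. In fae1 the first step had 0 calls in either direction, with 0% of all genes called by edgeR. At an unadjusted p below 0.05 there were 15 members, 12 of them lower, beside 1477 of all 18897 genes. DESeq2 gave 0 calls. The second step had 23 members lower and 2 higher (19.6% and 13.4%); fitted on the fae1 libraries alone it had 16 calls, all lower. Without the 2 libraries A that stood apart from their groups, 24 of 39 members were lower and 3 higher in the first step of fae1, as were 13.8% and 15.4% of all genes. The members' median was then -0.99, and leaving out library A of 7-8 days alone gave 21 calls. In the second step 21 were then lower and 2 higher (14.3% and 12.4% of all genes). Shares of all genes are not given here for DESeq2, the fae1 libraries alone, single libraries left out or the non-unique share in the model.

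Among the 20 A cyclins (all but CYCA3-4), B cyclins and CDKBs, the median log2 fold change in the first and second step was -0.69 and -2.10 in fae1, -1.56 and -1.57 in CL37, and -1.09 and -1.77 in PDAT. The second fall was the larger for 19 of the 20 in fae1, 12 in CL37 and 16 in PDAT. Both steps use the same 9-10 day libraries, so a high or low value there moves them in opposite directions, and in fae1 the split rests on the libraries A as labelled. Without both, the fae1 medians were -1.42 and -1.67, and the second fall was the larger for 13 of the 20. CYCB1-2 fell by 1.56 ± 0.35 (adjusted p = 0.00453) and then by 1.75 ± 0.40 (adjusted p = 0.00191) in CL37, and CDKB2-1 by 1.35 ± 0.24 (adjusted p = 0.00115) and then by 2.03 ± 0.27 (adjusted p = 9.39e-06). Without both libraries A, CYCB1-2 fell by 1.63 ± 0.30 (adjusted p = 0.000366) in the first step of fae1, and CDKB2-1 by 1.28 ± 0.17 (adjusted p = 1.42e-05).

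**Figure D4:**
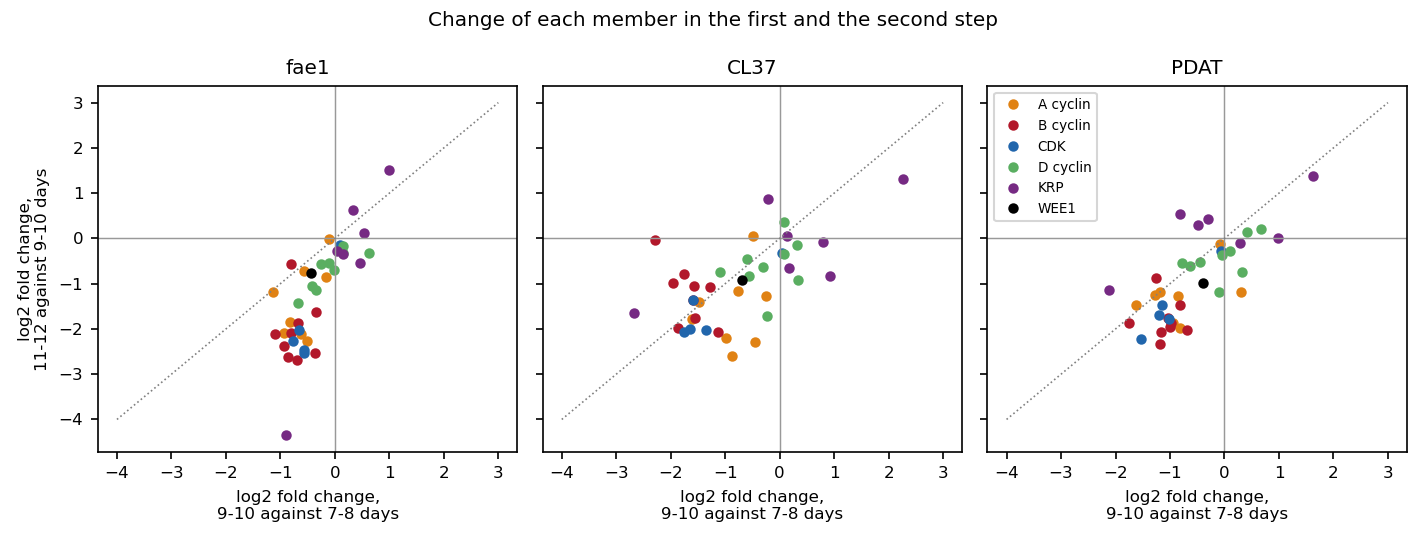
Log2 fold change of each tested member in the first step (9-10 against 7-8 days, x axis) and in the second (11-12 against 9-10 days, y axis) in fae1, CL37 and PDAT, coloured by subfamily; the dotted line marks equal change. A cyclins, B cyclins and CDKs lie mostly at the lower left, KRP6 at the upper right, and in fae1 19 of the 20 A cyclins (all but CYCA3-4), B cyclins and CDKBs lie below the dotted line (13 of the 20 without both libraries A).

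Differences between the lines at one stage were few: with all libraries, 3 KRP inhibitors and 1 D cyclin were called. With the hydroxylase (CL37 against fae1), 0 of 39 members were called by edgeR at 7-8 or 9-10 days, when 0.00529% and 0.704% of all genes were higher and 0.0212% and 0.0370% lower. At an unadjusted p below 0.05 there were 3 and 10 members, beside 1426 and 2411 of all 18897 genes. DESeq2 called 0 and 0 members. At 11-12 days KRP1 was higher and KRP2 and KRP4 were lower, where 10.5% of all genes were higher and 5.04% lower. At 11-12 days KRP1 was at 3.23, 3.78 and 2.93 CPM in fae1 and 5.11, 5.63 and 6.9 in CL37, with no overlap, and a log2 difference of 0.83 ± 0.23 (adjusted p = 0.0143). KRP4 was at 66.6, 67.6 and 56.5 CPM in fae1 and 30, 46 and 37.7 in CL37, with no overlap, and differed by -0.74 ± 0.22 (adjusted p = 0.0252). KRP2 was at 14.2, 19.1 and 18.3 CPM in fae1 and 7.21, 10.3 and 12.4 in CL37, also without overlap, and differed by -0.77 ± 0.22 (adjusted p = 0.0171). Each of the 3 calls was lost on leaving out 1 of several libraries. KRP1 was lost without fae1 or CL37 library C, KRP2 without CL37 library A, fae1 B or fae1 C, and KRP4 without CL37 A or C or fae1 A or B. Over these fits 1 to 6 members were called in all. Over the mean of the 3 stages KRP1 was the 1 member called, at 0.54 ± 0.13 (adjusted p = 0.0131), where 5.61% of all genes were higher and 1.47% lower. That call was lost without library C of both lines at 11-12 days (adjusted p = 0.0668). Without both libraries A of fae1, 6 members were called in CL37 against fae1 at 11-12 days (13.5% of all genes higher and 9.80% lower), when CYCB2-2 was also higher (1.15 ± 0.41 (adjusted p = 0.0434)) and CYCD3-1 (-0.56 ± 0.17 (adjusted p = 0.018)) and CYCA2-3 (-0.45 ± 0.16 (adjusted p = 0.0493)) also lower. Over the mean of stages 3 were then called (6.57% and 2.22%), KRP1 higher at 0.51 ± 0.14 (adjusted p = 0.0279) and CYCA3-4 (-0.30 ± 0.08 (adjusted p = 0.0228)) and CYCD3-2 (-0.29 ± 0.09 (adjusted p = 0.0377)) lower, and at 7-8 and 9-10 days 0 were called by edgeR.

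With both transgenes (PDAT against fae1), KRP1 was again higher. At 7-8 days it was at 3.71, 3.31 and 3.5 CPM in fae1 and 7.69, 5.1 and 9.62 in PDAT, with no overlap and a difference of 1.08 ± 0.23 (adjusted p = 0.00814). At 11-12 days the difference was 0.90 ± 0.23 (adjusted p = 0.0193). The 7-8 day call was lost when the 7-8 day libraries were fitted alone (adjusted p = 0.0733) and with the share of non-unique alignments in the model (0.0855). The 11-12 day call was lost without fae1 library A or C or PDAT library A (adjusted p of 0.0782 to 0.124). At 7-8 days 4.77% of all genes were higher and 3.87% lower, and at 11-12 days 4.93% and 1.68%. At 9-10 days 0 members were called by edgeR and 0 by DESeq2. At an unadjusted p below 0.05 there were 5 members, beside 2441 of all 18897 genes. KRP1 was then at 3.83, 5.42 and 5.28 CPM in fae1 and 4.59, 3.61 and 4.34 in PDAT, overlapping. The other member called at 7-8 days was CYCD3-2, lower in PDAT by 0.90 ± 0.28 (adjusted p = 0.0464). That call ended with other scalings, with the replicate block, with the 7-8 day libraries fitted alone, with the share of non-unique alignments in the model and on leaving out fae1 library B or C or any 1 of the 3 PDAT libraries. Over the mean of the stages KRP1 was higher (0.60 ± 0.13 (adjusted p = 0.00835)) and KRP4 (-0.48 ± 0.13 (adjusted p = 0.0281)) and CYCD4-1 (-0.42 ± 0.13 (adjusted p = 0.0488)) lower, against 3.68% of all genes higher and 2.17% lower. KRP4 was lost without any of 5 single libraries and CYCD4-1 without any of 14, where over all such fits 1 to 8 members were called. PDAT and CL37 are both compared with the same fae1 libraries, so the 2 sets of differences are not independent.

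Without the libraries A of fae1, 5 members were lower and 1 higher in PDAT than in fae1 at 7-8 days, as were 10.3% and 12.1% of all genes. They were CYCD3-2 at -1.24 ± 0.15 (adjusted p = 6.97e-05), CYCD3-3 at -0.71 ± 0.16 (adjusted p = 0.00357), CYCD3-1 at -0.64 ± 0.16 (adjusted p = 0.00635), CYCD2-1 at -0.48 ± 0.17 (adjusted p = 0.0444) and KRP3 at -0.91 ± 0.33 (adjusted p = 0.0494). KRP1 at 1.11 ± 0.26 (adjusted p = 0.00427) was the higher one. CYCD3-2 was among the genes by which these libraries were picked out, with a low value in library A of 7-8 days. Its calls without them, here and over the mean of stages, are thus no independent test. Over the mean of stages, 1 was higher and 5 lower without these libraries (5.22% and 3.84% of all genes), the lower ones being CYCA3-4, CYCD3-1, CYCD3-2, CDKB1-2 and KRP4. At 11-12 days KRP4 was then called lower (-0.68 ± 0.14 (adjusted p = 0.00262)) beside KRP1 (9.07% of all genes higher and 6.64% lower). At 9-10 days 0 members were then called (0.0313% of all genes higher and 0.0261% lower). Tissue markers at 7-8 days are given with all libraries, the libraries A of fae1 included. The endosperm sum was 26.6 to 60.4 CPM in fae1, 80.5 to 82.6 in CL37 and 83.8 to 104 in PDAT. Of the 5 endosperm markers tested, 1 was higher in PDAT than in fae1, the 1 call among 23 markers tested. The median log2 difference of PDAT against fae1 was 1.71 for endosperm and 0.69 for seed coat markers. It was -1.41 for maturing seed, 0.34 for embryo and 0.15 for silique wall markers. The part of these markers in the differences between lines was not tested.

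Whether the change from 7-8 to 11-12 days itself differed between lines was tested as an interaction. With all libraries 0 members were called by edgeR in any of the 3 pairs of lines, when at most 5.51% of all genes were called in 1 direction. At an unadjusted p below 0.05 there were 1, 4 and 2 members for CL37 against fae1, PDAT against CL37 and PDAT against fae1. Of all 18897 genes, 4154, 2162 and 5208 passed that threshold in the same comparisons. DESeq2 called 0, 0 and 0 members. The smallest p values belonged to CYCD3-2, whose change differed by 1.14 ± 0.39 (adjusted p = 0.0692), and to CYCD2-1, at 0.59 ± 0.21 (adjusted p = 0.0763), both for PDAT against fae1. Without the libraries A of fae1, CYCD3-2 was called there at 1.49 ± 0.21 (adjusted p = 0.0001), with CYCD3-3 at 0.68 ± 0.22 (adjusted p = 0.0243), CYCD2-1 at 0.66 ± 0.22 (adjusted p = 0.032) and KRP3 at 2.41 ± 0.74 (adjusted p = 0.019). All 4 differences were higher in PDAT. CYCD3-2 was among the genes by which the libraries A were picked out, so its calls without them are no independent test. In that comparison 13.9% of all genes were higher and 13.9% lower. For CL37 against fae1, CYCD3-2 (0.61 ± 0.21 (adjusted p = 0.0471)) and KRP4 (-0.77 ± 0.22 (adjusted p = 0.0209)) were then called (8.85% higher and 8.20% lower), and for PDAT against CL37 CYCD3-2 (0.88 ± 0.20 (adjusted p = 0.0222); 0.428% higher).

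Adding the acyltransferase to the hydroxylase line (PDAT against CL37) gave, with all libraries, 0 called members at any stage, over the mean of stages or in the interaction by edgeR, and at most 2.55% of all genes were called in 1 direction. It had 6, 3 and 1 members at an unadjusted p below 0.05 at 7-8, 9-10 and 11-12 days, beside 2148, 725 and 2020 of all 18897 genes. DESeq2 called 0 members in each of these comparisons. The smallest p values were those of CYCA2-3, whose change from 7-8 to 11-12 days differed by 0.63 ± 0.22 (adjusted p = 0.277), and of CYCD3-3 at 7-8 days, at -0.54 ± 0.20 (adjusted p = 0.316). CYCA2-3 went from 10.6, 13.7 and 15.1 to 3.76, 5.15 and 4.65 CPM in CL37 and from 9.13, 9.89 and 11.1 to 5.25, 5.59 and 5.37 CPM in PDAT. CYCD3-3 at 7-8 days was at 52.7, 43 and 36.3 CPM in CL37 and 34.9, 24.8 and 31.2 in PDAT, with no overlap. KRP1 was at 5.11, 5.63 and 6.9 and 7.5, 6.32 and 4.88 CPM at 11-12 days in CL37 and PDAT, a difference of 0.06 ± 0.22 (adjusted p = 0.978).

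**Figure D5:**
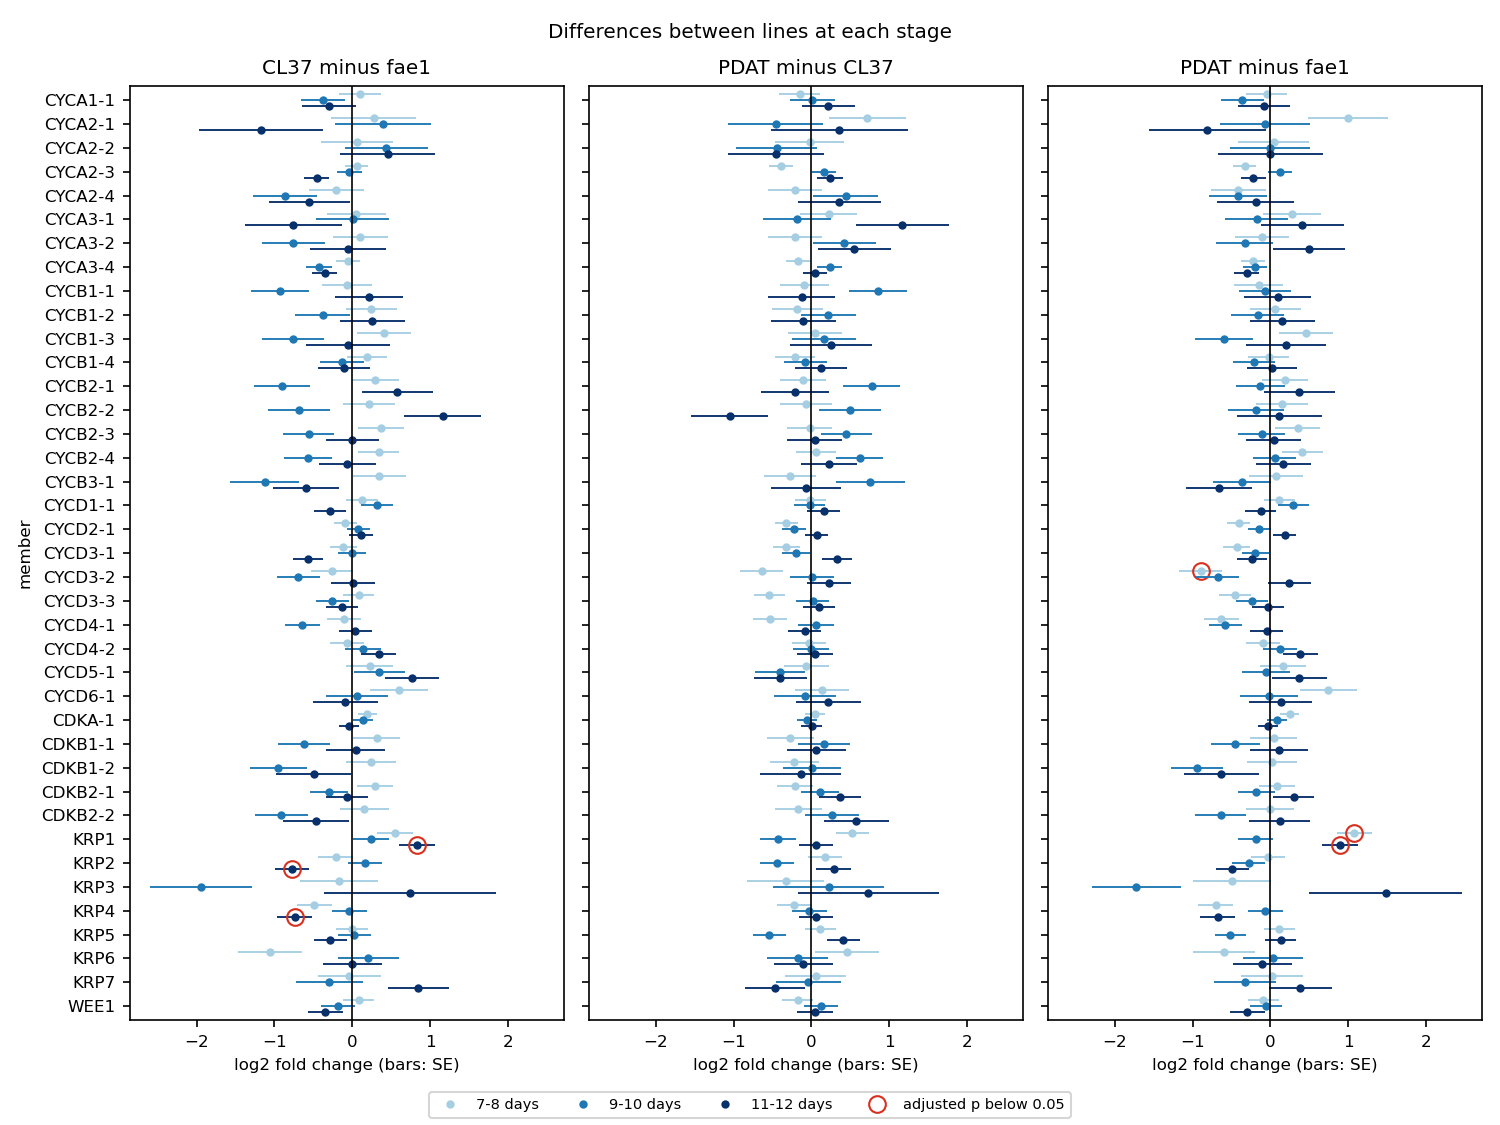
Log2 difference of each tested member between CL37 and fae1, PDAT and CL37, and PDAT and fae1 at 7-8, 9-10 and 11-12 days, with its standard error; red circles mark an adjusted p below 0.05. Circled are KRP1, KRP2 and KRP4 in CL37 against fae1 at 11-12 days, KRP1 and CYCD3-2 in PDAT against fae1 at 7-8 days and KRP1 at 11-12 days, and no member in PDAT against CL37.

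Other genes of the cycle, a list of 47 genes of which 46 were tested, are given for comparison. Between 7-8 and 11-12 days 27, 26 and 29 of them were lower and 7, 6 and 4 higher in fae1, CL37 and PDAT, with medians of -1.32, -1.19 and -1.46. The shares of all genes called are those given for the same 3 comparisons, 26.5%, 28.6% and 26.7% lower and 24.0%, 29.5% and 27.2% higher. Without both libraries A, 28 of the 46 were lower and 9 higher in fae1, with a median of -1.65. All 6 genes of mitosis and the cell plate and all 5 of replication licensing fell in each line. In fae1 the log2 fold change was -3.72 for the mitotic kinase AUR1, -3.39 for the cytokinesis syntaxin KNOLLE, -3.81 for the sliding clamp PCNA1 and -1.71 for the licensing factor CDT1A. Of the 7 regulators of the anaphase-promoting complex, 5, 5 and 6 fell, with the activators CDC20.1 at -3.63 and CCS52B at -3.21 in fae1, and 2, 1 and 0 rose. UVI4, an inhibitor of the complex, was at -3.20 ± 0.46 (adjusted p = 1.7e-05) in fae1. Of the 4 MYB3R factors, which bind the MSA element, 1, 2 and 2 fell and 0 rose, with the activator MYB3R4 at -2.80 ± 0.34 (adjusted p = 2.99e-06) in fae1. The fae1 counts of these groups were the same when both libraries A were left out.

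The SIM and SMR inhibitors, a second family that blocks CDKs, numbered 8 tested of 9, of which 3, 4 and 4 rose and 3, 2 and 1 fell in fae1, CL37 and PDAT. These counts, among few genes and beside 24.0% to 29.5% of all genes higher and 26.5% to 28.6% lower, are a description. In fae1, SMR5 was at 2.95 ± 0.58 (adjusted p = 0.000418) and SMR3 at 1.35 ± 0.33 (adjusted p = 0.00213), while SIM was at -0.96 ± 0.19 (adjusted p = 0.000473) and SMR6 at -2.25 ± 0.57 (adjusted p = 0.00283). When both libraries A were left out, 4 rose and 3 fell in fae1, beside 30.2% and 31.0% of all genes. SMR5 was then at 6.45 ± 0.62, SMR3 at 1.78 ± 0.36, SIM at -1.06 ± 0.20 and SMR6 at -2.74 ± 0.45. Of the 7 CKS subunits and CDK-activating kinases, 4, 3 and 4 fell and 0 rose, with CKS2 at -3.24 ± 0.36 (adjusted p = 1.5e-06) and CDKD3 at -1.79 ± 0.28 (adjusted p = 3.88e-05) in fae1. Leaving out both libraries A gave 4 lower and 1 higher in fae1, CDKD2 at 0.50 ± 0.20 (adjusted p = 0.0353). Of the 9 genes of the E2F and retinoblastoma group, 3, 3 and 5 fell and 2, 1 and 0 rose, a description beside the same shares of all genes. DEL1, a repressor of the endocycle, was at -3.48 ± 0.59 (adjusted p = 9.86e-05) in fae1, and the factor E2FB at 0.93 ± 0.27 (adjusted p = 0.0072). With both libraries A left out, 4 of the 9 fell and 2 rose in fae1, with DEL1 at -3.88 ± 0.38 and E2FB at 1.52 ± 0.22.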

How the data were processed

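Transcripts of seeds were measured by mRNA sequencing (TruSeq mRNA kit v2) in 27 libraries, 3 for each of 9 groups, grouped by the labels. The authors deposited raw counts of reads per gene for each library; per the submitters' processing notes, Cufflinks 2.0.1, HTSeq 0.5.4p3, TopHat2 2.0.3, Trimmomatic 0.22 and bcl2fastq 1.8.2 were used with the TAIR10 build, and whether counting used strand is not given in the sources used here. The authors' deposited FPKM table holds 1 pooled value per group with no error and was used for its gene positions alone. The last 5 lines of each count file, which name no gene, took 4.68% to 20.5% of a file's total, most of it non-unique alignments (4.05% to 19.4%), and were left out.

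Counts were fitted with edgeR 4.0.16 in R 4.3.3 (filterByExpr over the 9 groups, TMM factors, robust quasi-likelihood fit with 1 mean per group), with 24 contrasts and Benjamini-Hochberg adjustment over all 18897 genes; the common coefficient of variation was 0.209. Levels are CPM with TMM factors, and error is the SE of the fit or the SD over 3 libraries. P-values measure the spread between these libraries. The members and lists were chosen with earlier results of these data known. Given in full were, in each subfamily, up to 3 called members with the largest change from 7-8 to 11-12 days averaged over the lines, the 1 with the smallest, each member that rose, and each called between lines; where none was called, those with the smallest p.

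In data simulated for fae1 at 11-12 against 7-8 days (18462 genes), 47 of 100 genes changed by 1 on the log2 scale and 92 of 100 changed by 2 were recovered, and 7 of 18266 unchanged genes were called. There each gene had 1 mean over all groups, and only those genes were changed, in fae1 at 11-12 days alone. No simulated library stood apart from its group, so these rates need not hold for the real comparison. Alternatives were other scalings, no filter, DESeq2 1.42.0, a replicate block, a quality covariate, fits of single lines or stages and libraries left out. Gene positions and sequences were read from RefSeq's TAIR10.1; no protein table was used.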

Additional observations from a re-analysis of the deposited data

How the results depend on the processing

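No member change called with all libraries changed direction under any alternative. Changes that were not called could change sign, as that of CDKA-1 in fae1 from first to last stage did without both libraries A. The cause of each change below was not tested. Except for the fits without both libraries A, the shares of all genes called are not given for these alternatives. Leaving out the libraries labelled A of fae1 at 7-8 and 9-10 days moved the called members from 0 to 27 for fae1 at 9-10 against 7-8 days, from 3 to 6 for CL37 against fae1 at 11-12 days, from 1 to 3 over the mean of stages and from 0 to 2 in the change over stages, from 0 to 1 for PDAT against CL37 in that change, and for PDAT against fae1 from 2 to 6 at 7-8 days, from 1 to 2 at 11-12 days, from 3 to 6 over the mean and from 0 to 4 in the change. Without library C of fae1 and CL37 at 11-12 days, CL37 against fae1 had 1 call at 11-12 days and 0 over the mean, and PDAT against fae1 1 at 7-8 and 0 at 11-12 days. With each library's share of non-unique alignments in the model, PDAT at 9-10 against 7-8 days had 0 calls in place of 21, CL37 against fae1 2 over the mean, and PDAT against fae1 0 at 7-8 days and 1 in the change. Fitting only the libraries compared gave 16 in place of 25 for fae1 at 11-12 against 9-10 days, and 0 at 7-8 and 2 at 11-12 days for PDAT against fae1; such fits give no mean of stages or interaction.

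Over the mean of stages CL37 against fae1 had 2 calls with RLE factors, upper-quartile factors or DESeq2, and at 11-12 days 5 with upper-quartile factors. PDAT against fae1 at 7-8 days had 1 call with RLE factors, upper-quartile factors or no filter, and at 11-12 days 2 with DESeq2. Upper-quartile factors moved the median of all genes by over 0.1 in 1 comparison, CL37 at 11-12 against 7-8 days, to -0.14 from 0.0083. Leaving out 1 library at a time gave 0 to 21 calls for fae1 at 9-10 against 7-8 days, 12 to 22 for PDAT at 9-10 against 7-8 days, for CL37 against fae1 1 to 6 at 11-12 days, 1 to 4 over the mean and 0 to 1 in the change, and for PDAT against fae1 1 to 5 at 7-8 days, 0 to 1 at 11-12 days, 1 to 8 over the mean and 0 to 3 in the change.

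The replicate letters were not taken as pairs, since not every same-letter pair correlated above 0.1: deviations of same-letter libraries had a median correlation of 0.033 (-0.543 to 0.537), with 34 of 108 pairs above 0.1, and those of libraries with other letters -0.026, with 50 of 216. As a hint from the data and not the design, 18 of 27 libraries correlated best with their own letter. With the letter as a replicate block PDAT against fae1 at 7-8 days had 1 call. Of the member results compared, 235 stayed as they were, either called or not called. A call was lost in 3 and gained in 1. CPM with RLE factors kept 358 of 360 group levels within 1 SD, and CPM without factors 204. Low counts limit KRP3 at 11-12 days and CYCD7-1 throughout, and other members in single libraries. The lowest library count was 0 for CYCA2-1, 1 for KRP3 and KRP7 and 2 for CYCA3-1 and CYCB3-1. It was 3 for CYCA2-2, CYCA3-2 and CYCB2-1.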
